A study of Mus musculus with 42 samples.

Results

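The genes described here carry thyroid hormone in plasma, bring it into the liver cell, convert it or respond to it. Of 6 genes proposed, Serpina7, Ttr, Thra and Thrb had a probe set with 1 gene symbol and were measured, 4 of the 17989 genes tested. Dio1 and Thrsp are not analysed here. Serpina7 leads the set: it was chosen by its measured rise on a high-fat diet in these same arrays. Its comparisons with the controls, and those of the other 3 genes, are therefore given as a description without a test. Each of the 4 genes had a single probe set, so no choice between probe sets was needed.

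Thyroxine travels in blood bound to thyroxine-binding globulin (the product of Serpina7), transthyretin (Ttr) and albumin, all secreted by hepatocytes. Membrane transporters carry it into cells, deiodinases turn it into triiodothyronine or inactivate it, and triiodothyronine binds the nuclear receptors encoded by Thra and Thrb. In liver, Thrb is regarded as the main receptor, and genes of fatty acid synthesis, gluconeogenesis and bile acid synthesis are among its known targets. Thyroxine-binding globulin belongs to the clade A serpins, whose fold it uses to hold a hormone instead of inhibiting a protease.

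Bulk liver RNA, in which fewer cells of a type and less RNA per cell cannot be told apart, came from male wild-type mice of the inbred strain C3HeB/FeJ, housed singly and fed at random, on 42 Affymetrix whole-transcript arrays. The 18 controls had eaten a low-fat diet for up to 21 days and were 15 to 17 weeks old. High-fat diet (HFD) groups of 8 arrays each had eaten it for 7 days (15 weeks old), 14 days (16 weeks) and 21 days (17 weeks), so the mice were older the longer they ate it. The labels number the replicates but name no animals; p-values therefore reflect only how these samples spread, and some of that spread may be technical. Only control and 21-day arrays carry the word reanalysis in their titles. Any batch it marks cannot be told apart from the diet at 7 and 14 days, nor from time in comparisons of 21 days with 7 or 14 days.

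Levels are log2 values. A background level was taken from 925 olfactory receptor genes, whose 95th percentile was 2.87, and all 4 genes lay above it on every array. All 8 hepatocyte markers lay above it in every group, with array means of 10.6 to 11.4. The mean of 13 pancreatic acinar markers lay between 3.40 and 8.41 in controls, 3.51 to 9.34 at 7 days, 3.44 to 9.38 at 14 days and 3.30 to 6.23 at 21 days. Of the acinar, endothelial, cholangiocyte and thyroid gland markers, 0 passed limma's test against controls at any time. Of the 8 Kupffer cell markers 2, Vsig4 and Cd68, rose at 7 days, beside 1.16% of all genes called higher at that time. The nuclear RNA Malat1 averaged 6.79 on the 7-day arrays numbered 1 to 4 and 9.05 on those numbered 5 to 8, with like gaps at 14 days (6.19 and 8.96) and 21 days (6.97 and 9.39), so values within these sets of arrays are given below.

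The promoter of Serpina7 is shown because this gene carries the largest change in the set. RefSeq (GRCm38.p6) lists 2 start sites 17 bases apart on chromosome X, minus strand. The window chrX:139085170-139085469 runs from 250 bases before to 50 bases after the downstream start, 5′ to 3′, with the capitals marking a TATAAA box and the letters GTTAAT followed after 4 further bases by AAC.
Serpina7: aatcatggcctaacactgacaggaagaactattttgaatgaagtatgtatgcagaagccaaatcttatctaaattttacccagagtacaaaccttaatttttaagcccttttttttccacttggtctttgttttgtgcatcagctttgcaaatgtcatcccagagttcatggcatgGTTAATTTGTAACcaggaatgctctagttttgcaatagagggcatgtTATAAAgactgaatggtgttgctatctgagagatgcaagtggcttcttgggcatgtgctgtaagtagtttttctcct

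The TATAAA box began 27 bases before this start, and 10 bases before the upstream one. TATAAA occurred on either strand in 13.6% of 32544 RefSeq promoter windows of the same length. The second match begins 74 bases before the start and is a loose pattern, with 4 positions free, modelled on sites of the hepatocyte factor HNF1. GTTAAT with AAC at this spacing occurred in 0.209% of windows, 68 in all. Both were searched after the sequence had been read. The half-site AGGTCA repeated in the same direction with 4 bases between, a known response element of the thyroid hormone receptors, was on either strand in 5 of the 32544 windows (0.0154%). The same repeat with 1 base between, an element of PPAR receptors, was in 13 windows (0.0399%), and the single half-site, which both contain, in 16.2%. Neither Serpina7 window held any of these 3. Of 2 windows listed for Thrb, 1 held the half-site.

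Serpina7, thyroxine-binding globulin, was higher at each time on the HFD. Its log2 value lay between 4.59 and 6.40 over the controls (median 5.61), between 6.52 and 8.06 at 7 days (median 7.32), between 6.19 and 7.40 at 14 days (median 6.76) and between 6.05 and 7.85 at 21 days (median 6.79). All 8 arrays at 7 days lay above every control, and 7 of 8 did at 14 and at 21 days, where the lowest array overlapped the upper controls. Complete separation of this kind was found for 0.228% of all genes at 7 days, 0.0778% at 14 days and 0.05% at 21 days, and 7 or more arrays above every control for 0.172% at 14 days and 0.128% at 21 days. As this rise put the gene in the set, nothing is read from these shares.

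The mean of Serpina7 was 5.55 ± 0.51 (SD, n = 18) in controls and 7.27 ± 0.47, 6.76 ± 0.35 and 6.78 ± 0.53 (SD, n = 8 each) at 7, 14 and 21 days. This made it 3.31-fold higher at 7 days (log2 1.73, SE 0.19), 2.33-fold at 14 days (log2 1.22, SE 0.19) and 2.35-fold at 21 days (log2 1.23, SE 0.19). Among the 17989 genes it was the 11th largest rise at 7 days, the 14th at 14 days and the 11th at 21 days. These comparisons share their 18 controls.

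**Figure D1:**
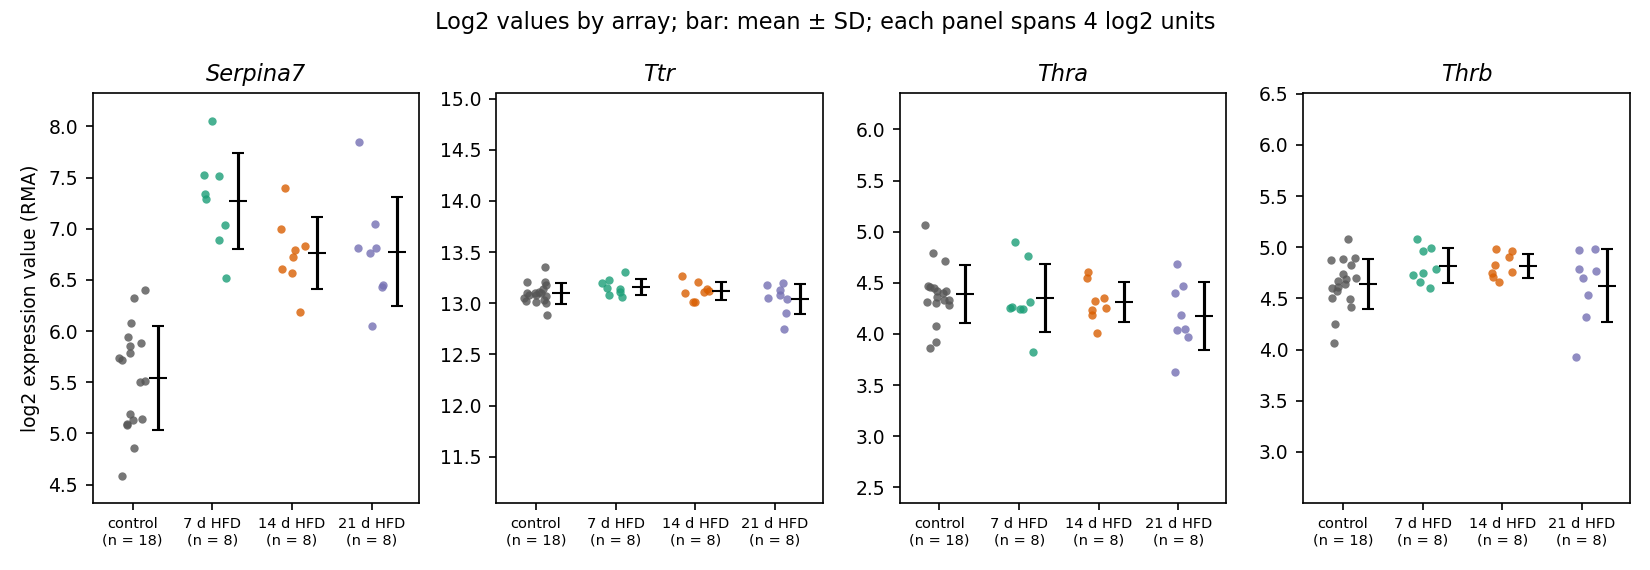
Log2 expression values of Serpina7, Ttr, Thra and Thrb (vertical axes, each spanning 4 log2 units) on 18 control arrays and 8 arrays at each of 7, 14 and 21 days of HFD; points are arrays, horizontal marks the means and bars the SD. The 7-day points of Serpina7 (6.52 to 8.06) all lie above its controls (4.59 to 6.40), while the groups of the other 3 genes overlap.

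The rise of Serpina7 was of like size in the sets of array numbers that differed in Malat1. At 7 days its mean was 7.26 on arrays numbered 1 to 4 and 7.28 on those numbered 5 to 8. The same sets averaged 6.89 and 6.64 at 14 days and 6.59 and 6.96 at 21 days. Controls numbered 1 to 9 averaged 5.43 and those numbered 10 to 18 averaged 5.67. Every HFD array lay above both control means, so any split of the HFD arrays would give higher means. As this rise chose the gene, the values in this paragraph are a description and no support. With Malat1 and the acinar mean as covariates, and with each array left out in turn, the 7-day change stayed between 1.61 and 1.83. Without the 8 arrays whose acinar mean was above 7 (3 controls, 3 at 7 days and 2 at 14 days) it was 1.73 at 7 days, 1.35 at 14 days and 1.24 at 21 days.

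Serpina7 did not pass a test between HFD times. The gene was chosen by its rise over controls and not by this comparison, but the same HFD values enter both. A choice by a large rise can favour a time with a high value, so this test is not free of the choice. Its level was 1.42-fold lower at 14 than at 7 days (log2 -0.51, 95% limits -0.97 to -0.05, unadjusted p = 0.0303, limma adjusted p = 0.9998 over all genes). At 21 against 7 days the log2 difference was -0.50 (95% limits -0.95 to -0.04, unadjusted p = 0.0344, limma adjusted p = 0.683). Between 21 and 14 days it was 0.01 (95% limits -0.45 to 0.47). A larger value at 7 days was thus not established after adjustment, and the limits do not show that the 3 times are alike. Over all genes limma called 0 between 14 and 7 days (451 with an unadjusted p under 0.05), 0 between 21 and 14 days (715) and 1, Lcn2, between 21 and 7 days (1283), or 0.00556% of genes.

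Ttr, the second carrier, which also binds retinol-binding protein, was nearly flat. Its log2 value lay between 12.89 and 13.35 in controls (median 13.09), between 13.06 and 13.31 at 7 days (median 13.14), between 13.01 and 13.27 at 14 days (median 13.11) and between 12.75 and 13.20 at 21 days (median 13.07). All groups overlapped, and 1 array at 21 days lay below every control. The differences from controls were 0.06 (SE 0.05), 0.02 (SE 0.05) and -0.06 (SE 0.05) at 7, 14 and 21 days. The 14-day difference was -0.01 after quantile normalization, with HFD arrays 1 to 4 alone and without the arrays of high acinar mean, and the 21-day difference was 0.04 with HFD arrays 5 to 8 alone. Between 21 and 7 days the log2 difference was -0.12 (95% limits -0.24 to 0.01, limma adjusted p = 0.697).

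Transcripts of the other proteins of this group were also close to their control means. Albumin (Alb) differed by 0.01, 0.02 and -0.01 in log2 at 7, 14 and 21 days (SE 0.05). Rbp4, the retinol carrier that rides on transthyretin, differed by 0.06, 0.06 and -0.05 (SE 0.05). Apoa1, an apolipoprotein that binds some thyroxine, differed by 0.12, 0.05 and 0.04 (SE 0.06). Of these 3 genes 0 passed limma's test at any time, and 0 had an unadjusted p under 0.05.

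Thra, the more widely expressed receptor gene, was dim. Its log2 value lay between 3.86 and 5.07 in controls (median 4.38), between 3.82 and 4.90 at 7 days (median 4.26), between 4.01 and 4.61 at 14 days (median 4.29) and between 3.63 and 4.69 at 21 days (median 4.11). The groups overlapped throughout. Its differences from controls were -0.04, -0.07 and -0.21 (SE 0.12 each), and the sign at 7 days turned with median centring (0.0044), the replicate number as a block (0.04), HFD arrays 1 to 4 alone (0.17), controls 1 to 9 alone (0.04) and without the arrays of high acinar mean (0.03). It also turned without HFD 7 days replicate 7 (0.038) or control 10 (0.0022). The sign at 14 days turned with the block (0.0027), controls 1 to 9 alone (0.0032) and without the arrays of high acinar mean (0.06). At 7 days its mean was 4.56 on the arrays numbered 1 to 4 and 4.15 on those numbered 5 to 8, and at 21 days 4.33 and 4.03. Part of the Thra locus is overlapped on the opposite strand by the clock gene Nr1d1, whose differences from controls were 0.17, 0.38 and 0.18 (SE 0.24, 0 of 3 called). Its part in the Thra signal was not tested.

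Thrb, the main receptor gene of the liver, also overlapped between groups. Its log2 value lay between 4.06 and 5.08 in controls (median 4.66), between 4.60 and 5.08 at 7 days (median 4.77), between 4.66 and 4.98 at 14 days (median 4.79) and between 3.92 and 4.98 at 21 days (median 4.74). At 14 days all 8 arrays lay above the control mean, and 7 of 8 did at 7 days. The differences from controls were 0.18, 0.18 and -0.02 (SE 0.10 each). At 7 days its mean was 4.91 on the arrays numbered 1 to 4 and 4.73 on those numbered 5 to 8. The same sets averaged 4.90 and 4.74 at 14 days and 4.60 and 4.64 at 21 days. Controls numbered 1 to 9 averaged 4.56 and those numbered 10 to 18 averaged 4.72. Over the alternatives the 7-day difference ran from 0.09 (HFD arrays 5 to 8 alone) to 0.27 (1 to 4 alone). The 14-day one ran from 0.09 (controls 10 to 18 alone) to 0.26 (controls 1 to 9 alone). The SD of Thrb was 0.36 at 21 days against 0.12 at 14 days, and the lowest 21-day array stood at 3.92. The 21-day sign turned with array weights (0.03), the block (0.05), HFD arrays 5 to 8 alone (0.01) and controls 1 to 9 alone (0.07). It also turned without HFD 21 days replicate 6 (0.084) or 3 (0.028) or control 13 (0.0097).

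Neither receptor gene passed a test between HFD times. For Thrb the log2 difference between 21 and 14 days was -0.19 (95% limits -0.43 to 0.05, limma adjusted p = 0.999), and between 21 and 7 days -0.20 (95% limits -0.44 to 0.04, limma adjusted p = 0.727). For Thra between 21 and 7 days it was -0.17 (95% limits -0.45 to 0.11, limma adjusted p = 0.796). In the F test for any difference among the 3 HFD times, the unadjusted p was 0.0478 for Serpina7, 0.160 for Ttr, 0.443 for Thra and 0.174 for Thrb, and each limma adjusted p was 0.9996. In that F test 1 of all genes, Lcn2, passed (0.00556%), and 792 had an unadjusted p under 0.05.

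The other genes of the pathway were taken from 7 lists of 83 genes besides the 6 proposed, of which 60 were measured. Together 6 rose and 2 fell at 7 days, 2 rose and 1 fell at 14 days, and 1 rose and 2 fell at 21 days, or 8, 3 and 3 of 60. Over all genes 1.4%, 0.667% and 0.7% were called at the 3 times by an adjusted p under 0.05 (1.16%, 0.506% and 0.445% as higher and 0.239%, 0.161% and 0.256% as lower). These lists held genes already seen to change in these arrays, so these shares are no independent evidence. The medians of their log2 changes were 0.06, 0.03 and -0.01, beside -0.01, -0.00 and 0.01 over all genes. Without the arrays of high acinar mean 2 rose and 0 fell at 7 days, 0 rose and 1 fell at 14 days, and 0 rose and 1 fell at 21 days. With the HFD arrays numbered 5 to 8 alone 1 rose and 0 fell at 7 days, and the count that rose at 7 days was 3 without HFD 7 days replicate 1, where the range over left-out arrays was 3 to 7.

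Among 7 measured membrane transporters 1 rose and 0 fell at each time, beside 1.16%, 0.506% and 0.445% of all genes called higher. Slc17a4, an organic anion transporter of liver and gut that also carries thyroid hormone, lay between 6.28 and 7.25 in controls (median 6.85) and between 7.32 and 7.90 at 7 days (median 7.52). It lay between 6.81 and 7.77 at 14 days (median 7.45) and between 6.40 and 7.87 at 21 days (median 7.56). All 8 arrays at 7 days lay above every control, and 6 of 8 did at each later time. It was 1.67-fold higher at 7 days (log2 0.74, SE 0.13, limma adjusted p = 2.68e-04), 1.47-fold at 14 days (log2 0.56, SE 0.13, limma adjusted p = 0.0217) and 1.45-fold at 21 days (log2 0.53, SE 0.13, limma adjusted p = 0.0323). The 7-day call held under all 14 alternatives (limma adjusted p 5.31e-06 to 0.0147) and with each array left out. At 14 days it ended without HFD replicate 3, 5, 7 or 8 (limma adjusted p up to 0.104), and over the alternatives the adjusted p ran from 0.00452 to 0.493. At 21 days it ended without control 1 or any of HFD replicates 1, 2 and 5 to 8 (up to 0.142), and over the alternatives it ran from 0.00304 to 0.349.

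The other 6 transporters did not pass. Slc10a1, the bile acid importer NTCP, differed by 0.09, 0.09 and -0.06 in log2 (SE 0.10). Slco1a1, an organic anion transporter, differed by 0.01, -0.03 and -0.12 (SE 0.15), and its relative Slco1a4 by 0.32, 0.29 and 0.25 (SE 0.20).

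Of 9 measured genes of deiodination and conjugation, 0 passed limma's test at any time, with 3, 1 and 1 at an unadjusted p under 0.05. Sult1a1, a phenol sulfotransferase that also sulfates iodothyronines, differed by 0.29 (SE 0.10, limma adjusted p = 0.204), 0.02 and 0.13. Ugt2b1, a glucuronosyltransferase, differed by -0.34, -0.43 and -0.44 (SE 0.13 each, limma adjusted p = 0.317, 0.226 and 0.175). Sult1d1, another sulfotransferase, differed by -0.14, -0.24 and -0.13 (SE 0.18). The deiodinase genes Dio2 and Dio3 had group means of 2.52 to 2.57 and 2.52 to 2.60, under the background level.

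Of 12 receptor partners and cofactors 0 passed limma's test and 0 had an unadjusted p under 0.05 at any time. Rxra, the retinoid receptor that pairs with the thyroid hormone receptors, differed by 0.07, 0.25 and 0.13 (SE 0.18), and Hdac3, a deacetylase of the corepressor complex, by 0.14, 0.03 and 0.15 (SE 0.09).

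Among 12 measured genes that thyroid hormone is known to regulate in liver, 3 rose and 1 fell at 7 days, 1 rose and 1 fell at 14 days, and 0 rose and 1 fell at 21 days. Their median log2 changes were 0.34, 0.19 and 0.10. Over all genes 1.16%, 0.506% and 0.445% were called higher and 0.239%, 0.161% and 0.256% lower at the 3 times. The 3 that rose at 7 days were Gpd2, Me1 and Acaca. The list was written with earlier results of these data known, which already held Me1, Acaca and Cyp7a1, so its count is not independent evidence of a direction.

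Gpd2, the mitochondrial glycerol-3-phosphate dehydrogenase and a long-known thyroid hormone target, lay between 5.44 and 6.82 in controls (median 6.18) and between 6.49 and 7.52 at 7 days (median 7.23). It lay between 6.30 and 7.31 at 14 days (median 6.89) and between 5.90 and 7.33 at 21 days (median 6.86). At 7 days 5 of 8 arrays lay above every control, and 4 of 8 did at each later time. It was 1.85-fold higher at 7 days (log2 0.89, SE 0.16, limma adjusted p = 4.52e-04) and 1.56-fold at 14 days (log2 0.64, SE 0.16, limma adjusted p = 0.0453), and did not pass at 21 days (log2 0.60, SE 0.16, limma adjusted p = 0.0761). With the HFD arrays numbered 5 to 8 alone the 7-day change was 0.63 and did not pass, and with 1 to 4 alone it was 1.14 (limma adjusted p over the alternatives 3.84e-06 to 0.298). The 14-day call ended when any of 21 arrays was left out (controls 1 to 3, 7, 8, 10 and 12 to 18, HFD 7 days replicate 4, HFD 14 days replicates 1, 2, 3, 5 and 7, and HFD 21 days replicates 2 and 4), with adjusted p up to 0.181, and over the alternatives it ran from 0.00132 to 0.680.

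Me1, malic enzyme, which supplies NADPH for fatty acid synthesis, was 1.75-fold higher at 7 days (log2 0.81, SE 0.20, limma adjusted p = 0.0160). It did not pass at 14 days (log2 0.51) or 21 days (log2 0.19). Acaca, acetyl-CoA carboxylase, was 1.97-fold higher at 7 days (log2 0.98, SE 0.21, limma adjusted p = 0.00485), with log2 differences of 0.76 and 0.48 at 14 and 21 days that did not pass. The Me1 call ended when HFD 7 days replicate 1 or 2 was left out (limma adjusted p as high as 0.0730). Both calls ended without the arrays of high acinar mean and with HFD arrays 5 to 8 alone, with changes that stayed positive (limma adjusted p over the alternatives 0.00199 to 0.493 for Me1 and 3.87e-04 to 0.378 for Acaca).

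Cyp7a1, which starts bile acid synthesis and is induced by thyroid hormone in rodents, was lower at all 3 times, by 2.40-, 2.39- and 2.68-fold (limma adjusted p = 0.0136, 0.0268 and 0.00582), below the control mean on 8 of 8 arrays each. Its 7-day call ended when HFD 7 days replicate 4 was left out (limma adjusted p = 0.0792), and the 14-day call without HFD 14 days replicate 1, 2, 3 or 7 (up to 0.107). Over the alternatives the adjusted p ran from 0.00726 to 0.303, from 0.00382 to 0.317 and from 2.86e-04 to 0.0888 at the 3 times. Of the brightest that did not pass, Pck1, of gluconeogenesis, differed by 0.27, 0.21 and 0.06 (SE 0.22). G6pc, which releases glucose, differed by 0.40, -0.08 and 0.14 (SE 0.25), and Fasn, fatty acid synthase, by 1.08, 0.93 and 0.80 (SE 0.31, limma adjusted p = 0.0686, 0.337 and 0.490).

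Of 8 measured genes related to Thrsp in fatty acid synthesis, 3 rose and 0 fell at 7 days, and 0 passed at 14 or 21 days (4 and 3 with an unadjusted p under 0.05). Over all genes 1.16% were called higher and 0.239% lower at 7 days. These 8 were also chosen with earlier results of these data known, so their count is not independent evidence. Beside Me1 and Acaca, which also stand in the list above, Pklr, liver pyruvate kinase, was 1.68-fold higher at 7 days (log2 0.74, SE 0.18, limma adjusted p = 0.0156). Its call ended when HFD 7 days replicate 1 or 2 was left out (up to 0.0678), and over the alternatives the limma adjusted p ran from 5.93e-04 to 0.587. Mid1ip1, the paralogue and partner of Thrsp, differed by 0.20, 0.09 and 0.04. Srebf1, the lipogenic transcription factor gene, differed by 0.13, 0.32 and 0.26 (SE 0.25), and Scd1, a desaturase, by 0.47, 0.24 and -0.05 (SE 0.17).

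Among 12 other measured clade A serpins, the relatives of Serpina7, 1 rose and 1 fell at 7 days, 0 passed at 14 days, and 1 fell at 21 days. Of all genes 1.16% were called higher and 0.239% lower at 7 days, and 0.256% lower at 21 days. Serpina6, corticosteroid-binding globulin, the other hormone carrier of the clade, lay between 8.52 and 10.36 in controls (median 9.43) and between 9.52 and 10.63 at 7 days (median 9.98). It lay between 9.65 and 10.27 at 14 days (median 10.13) and between 9.48 and 10.10 at 21 days (median 9.95). The groups overlapped, and all 8 arrays of each HFD group lay above the control mean. It was 1.55-fold higher at 7 days (log2 0.63, SE 0.16, limma adjusted p = 0.0270), and its changes of 0.57 and 0.42 did not pass at 14 days (limma adjusted p = 0.109) and 21 days (0.495). The 7-day call ended when HFD 7 days replicate 1, 2 or 3 was left out (up to 0.118). It also ended without the arrays of high acinar mean (log2 0.74) and with HFD arrays 5 to 8 alone (log2 0.36), and over the alternatives the limma adjusted p ran from 0.00144 to 0.671.

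The level of the pseudogene Serpina4-ps1 was 3.54-fold lower at 7 days (limma adjusted p = 0.0363) and 3.71-fold lower at 21 days (limma adjusted p = 0.0438). At 14 days it was 2.98-fold lower and did not pass (log2 -1.57, SE 0.48, limma adjusted p = 0.199). Over the alternatives the limma adjusted p was 1.82e-05 to 0.646 for the 7-day change and 1.29e-05 to 0.512 for the 21-day one. The 7-day call ended without any of 13 arrays (controls 1, 5 to 9, 15 and 17 and HFD 7 days replicates 1 to 4 and 7; adjusted p up to 0.148). The 21-day call ended without any of 18 arrays (controls 1, 3, 5 to 9, 12, 14, 15 and 17, HFD 7 days replicate 1, HFD 14 days replicates 2 and 5, and HFD 21 days replicates 1 to 4; up to 0.166). Probe sets of closely related serpins can share transcripts, which was not tested here. Of the brightest that did not pass, Serpina1c, an alpha-1-antitrypsin gene, differed by 0.08, 0.12 and 0.02 (SE 0.06), Serpina1d by -0.01, 0.01 and -0.12 (SE 0.08), and Serpina3n, an acute phase serpin, by 0.32, 0.31 and 0.15 (SE 0.17).

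**Figure D2:**
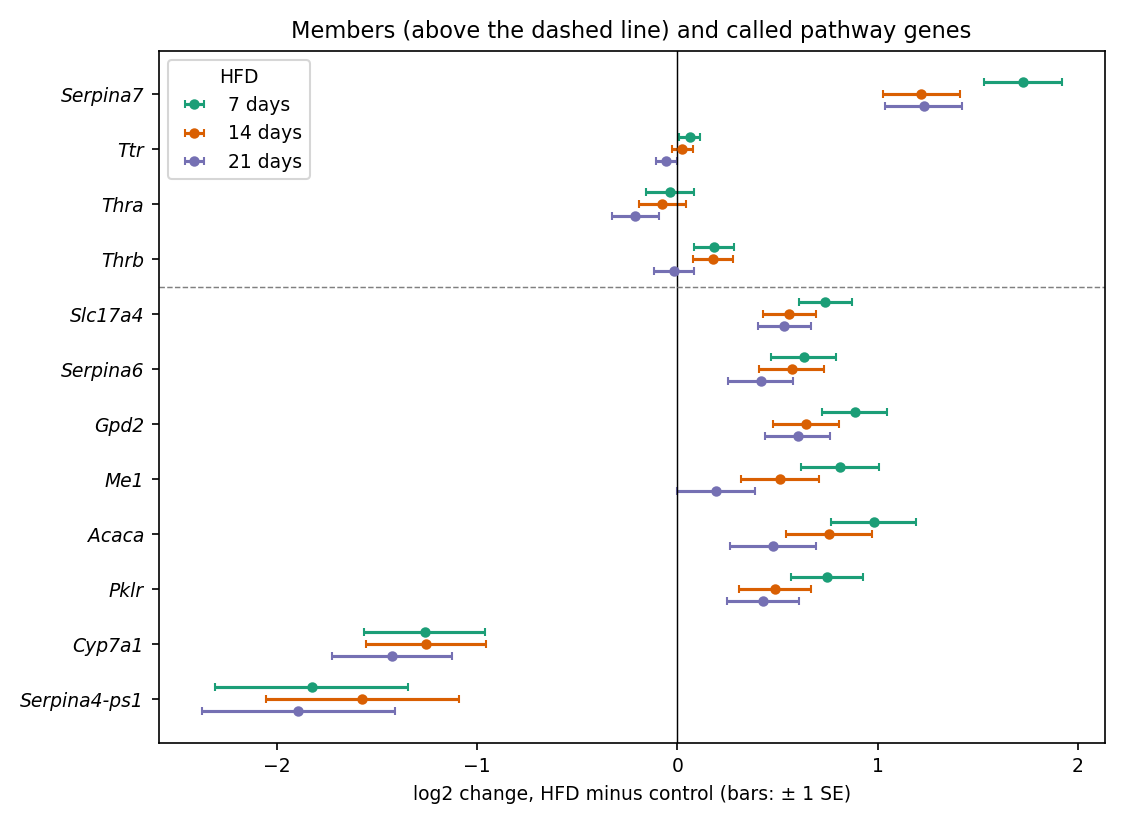
Log2 change (HFD minus control, horizontal axis) at 7, 14 and 21 days for the 4 measured genes, above the dashed line, and for the 8 pathway genes called at 1 or more times; bars are 1 SE. Serpina7 lies at 1.73, 1.22 and 1.23, with Ttr, Thra and Thrb near 0, and Cyp7a1 and Serpina4-ps1 lie to the left of 0 at all 3 times.

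Within groups, 1 of the 6 pairs of the 4 genes, Ttr with Thrb, passed a test of correlation, and that call did not hold under 3 alternatives. Over deviations from the group means on 42 arrays, 6 pairs were compared by permuting arrays within groups (100000 resamples, 2-sided). This shuffled HFD arrays across the numbers 1 to 4 and 5 to 8, which differed in Malat1. The permutation p-values do not account for that split. Ttr and Thrb had Pearson r = 0.48 (permutation p = 0.00595, adjusted 0.0357) and Spearman rho = 0.46 (permutation p = 0.00358, adjusted 0.0215). Their r was 0.54 within the 18 controls, 0.81 on the 12 HFD arrays numbered 1 to 4 and 0.51 on the 12 numbered 5 to 8. Without the 2 arrays farthest from the median of Ttr it was 0.41 (permutation p = 0.0128, adjusted 0.0771). After quantile normalization, which gives every array the same distribution, r was 0.17 (permutation p = 0.369, adjusted 0.738). That step also gave several arrays of a group the same Ttr value, so part of the differences in Ttr was lost. What this loss adds to the lower r was not tested. With the replicate number as a block r was 0.34 (permutation p = 0.0625, adjusted 0.188). Replicate numbers above 8 occur only among controls, so the block left those controls no deviation. The permutation still shuffled them, so this p is only approximate.

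Serpina7 and Ttr, the 2 plasma carriers, had r = 0.36 (permutation p = 0.0274, adjusted 0.0822) and rho = 0.31 (permutation p = 0.0519, adjusted 0.156), which did not pass. Within controls their r was 0.64, on the HFD arrays numbered 1 to 4 it was 0.28, and on those numbered 5 to 8 it was 0.03. Without the 2 arrays farthest from the median of Serpina7 the pooled r was 0.31. Serpina7 and Thrb had r = 0.06 (permutation p = 0.734, adjusted 0.819), with 0.49 in controls and -0.55 on the HFD arrays numbered 5 to 8. The other 3 pairs had r between -0.10 and 0.16, with adjusted p of 0.690 or more.

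**Figure D3:**
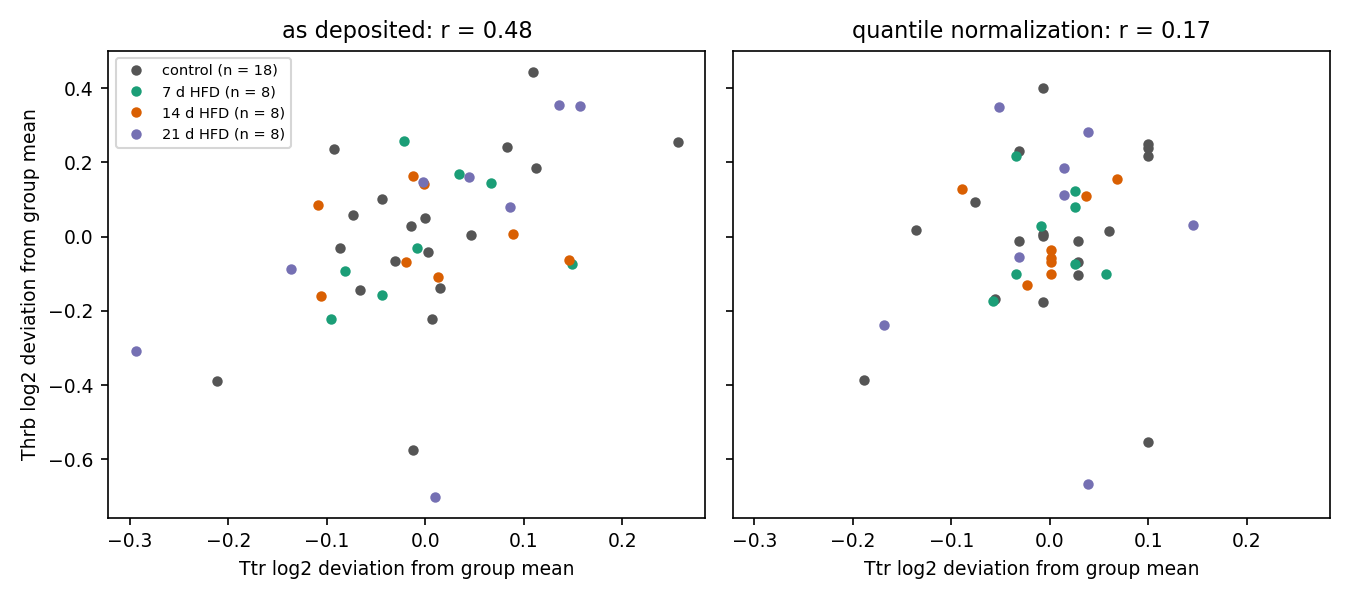
Deviations of Thrb (vertical axis) and Ttr (horizontal axis) from their group means in log2 units on 42 arrays, coloured by group, from the deposited values (left) and after quantile normalization (right). The cloud slopes upward on the left (r = 0.48) and far less on the right (r = 0.17), where several arrays of a group share a Ttr value.

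The genes whose values followed Serpina7 most closely over all 42 arrays were genes that also rose on the diet. Their Pearson r was 0.87 for Fabp2, the intestinal fatty acid binding protein, and 0.85 for Abcd2, a peroxisomal fatty acid transporter. It was 0.84 for Cyp4a10 and 0.83 for Cyp4a31, fatty acid omega-hydroxylases, 0.82 for the pantetheinase Vnn1 and 0.82 for the mitochondrial carrier Slc25a47. Over the other 17988 genes the 95th percentile of r was 0.33. These values include the step between control and HFD arrays. Within the controls r was lower: 0.44 for Fabp2, 0.59 for Abcd2, 0.57 for Cyp4a10, 0.27 for Cyp4a31, 0.25 for Slc25a47 and -0.27 for Vnn1. On the HFD arrays r was taken over deviations from the mean of each HFD time. That is a different measure, which also removes differences between these times. On the arrays numbered 1 to 4 and 5 to 8 it was 0.58 and 0.69 for Fabp2 and 0.29 and 0.55 for Abcd2. It was 0.17 and 0.32 for Cyp4a10, 0.09 and 0.63 for Cyp4a31, 0.57 and 0.24 for Slc25a47 and 0.40 and 0.54 for Vnn1. Over all 42 arrays as deposited, the Spearman rho of these genes ran from 0.76 to 0.89. Without the 2 arrays farthest from the median of Serpina7 their r ran from 0.82 to 0.85. No p is given for genes picked as the most alike.

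With the group means removed, other genes stood nearest. Pearson r was 0.67 for Med21, a Mediator subunit, 0.64 for Apcs, serum amyloid P, and 0.62 for Ugt3a2, a glycosyltransferase. It was 0.61 for Naca, of the nascent polypeptide complex, 0.61 for Uchl3, a ubiquitin hydrolase, and 0.60 for Mrpl1, a mitochondrial ribosomal protein. Without the 2 arrays farthest from the median of Serpina7 these fell to between 0.48 and 0.58. None of the 6 passed limma's test against controls at any time. The most opposite were Sdr16c6 (r = -0.59), Fam216a (-0.56) and Mir488 (-0.55). Sdr16c6 and Mir488 had means under the background level in every group. Med21 had r = 0.70 in controls, 0.52 on the HFD arrays numbered 1 to 4 and 0.75 on those numbered 5 to 8, and Apcs 0.51, 0.72 and 0.86. The arrays share their scaling, so such values can hold array-wide shifts, which was not tested.

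**Figure D4:**
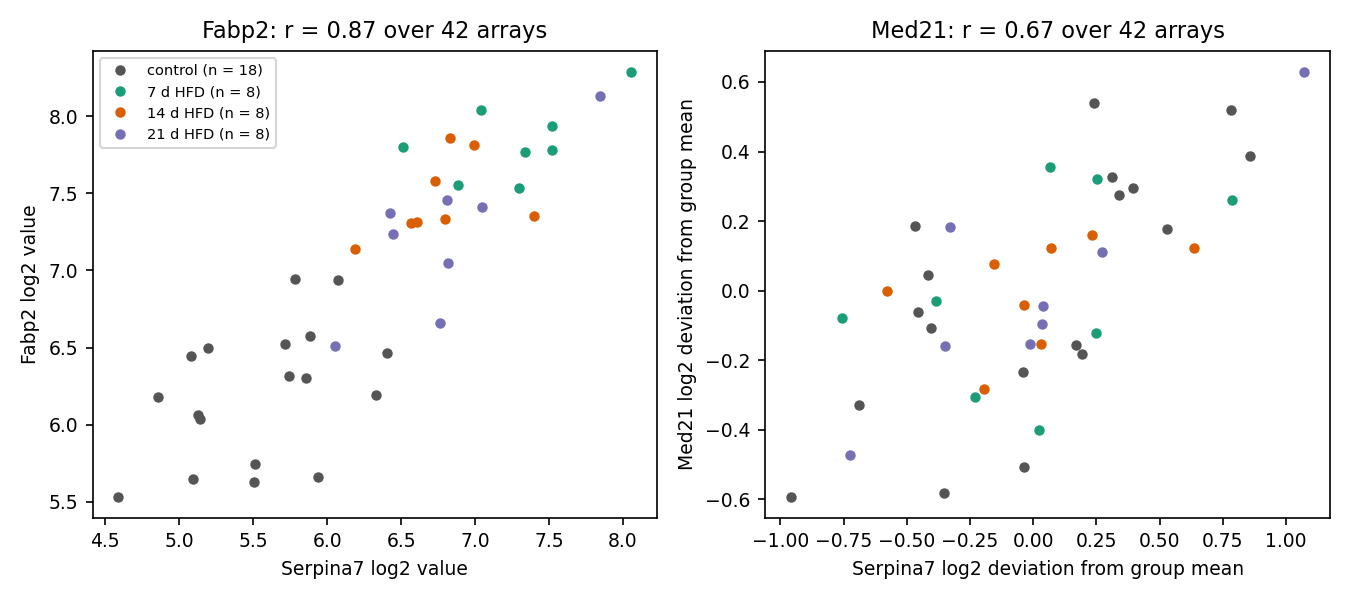
Serpina7 (horizontal axes) against Fabp2 as log2 values (left) and against Med21 as log2 deviations from group means (right) on 42 arrays, coloured by group. On the left the HFD arrays lie mostly above and to the right of the controls (r = 0.87), and on the right the slope runs through all groups together (r = 0.67).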

How the data were processed

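Per the submitters' processing notes, the authors made the deposited log2 values by RMA (Affymetrix Expression Console 1.1). No genome build for the probe sets is named here. Of 32624 probe sets, 19559 had 1 gene symbol in the platform annotation, 1469 several and 11596 none listed. The brightest probe set stood for a gene, giving 17989 genes, dim ones included. Array medians ran from 3.08 to 3.28, and no scaling was added. Arrays carry no read depth, so their number limits the precision: the median SE was 0.09 against controls and 0.11 between HFD times.

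All 42 arrays entered 1 limma 3.58.1 fit (R 4.3.3; lmFit, eBayes) with 4 groups. Adjusted p-values are Benjamini-Hochberg over all genes, 2-sided, with a threshold of 0.05. The fit was tested on simulated data. The members and lists were chosen with earlier results of these data known. Named were the 4 measured members, every called gene of the 7 lists, up to 3 of the brightest uncalled per list, the 6 most and 3 least correlated with Serpina7 within groups and the 6 most correlated overall. Others (Vsig4, Cd68, Lcn2, Dio2, Dio3, Mid1ip1) were named after their values were seen. Alternatives covered scaling, probe sets, weights, covariates, subsets of arrays and the replicate number as a block. Replicate numbers above 8 occur only among controls, so with the block those controls add nothing to the differences from controls. The labels give same-numbered arrays no shared source, and they were not treated as paired. Their deviations correlated above 0.1 in 5 of 24 control-HFD pairs and in 17 of 24 HFD-HFD pairs (7 of 8 between 14 and 21 days). Arrays of different numbers were not compared in this way.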

Additional observations from a re-analysis of the deposited data

Results flagged for a closer look

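Of 36 sets of 8 HFD arrays checked (12 genes at 3 times), 1 held an array far from the others, and chance flags about 1 in 20. Cyp7a1 on HFD 7 days replicate 4 had a log2 value of 5.69, with the nearest array at 7.71, a gap of 0.697 of the group's range against a critical value of 0.526.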

How the results depend on the processing

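Against controls Serpina7 stayed higher under all 14 alternatives (log2 1.60 to 1.85 at 7 days, 1.09 to 1.35 at 14 days and 1.04 to 1.42 at 21 days) and with every array left out. This is a description, since the rise chose the gene. Some alternatives could not change its difference. They were the mean of probe sets (it has a single one), a filter on dim genes, the trend and robust options of eBayes, and fitting only the groups compared. As every HFD array lay above the means of both sets of controls, the subsets by array number had to give a rise too. Counts below are those that passed limma's adjusted test. In order of 7, 14 and 21 days, the main counts of all genes were 251, 120 and 126, of pathway genes that rose 6, 2 and 1, and of those that fell 2, 1 and 2. Only the larger moves from these counts are listed below, so a count not given may still differ from the main one. For example, with quantile normalization all genes numbered 226, 131 and 150. With Malat1 and the acinar mean as covariates 8 pathway genes rose at 7 days. The causes of the moves were not tested.

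With quantile normalization 2 pathway genes rose at 21 days. With median centring 1 rose at 14 days and 0 at 21 days. With array weights all genes numbered 605 at 7 days and 193 at 14 days, and 1 pathway gene fell at 21 days. With the trend and robust options of eBayes 1, 0 and 1 fell at 7, 14 and 21 days. With only the groups compared in the fit 1 fell at 7 days, and 0 rose and 1 fell at 21 days. With HFD arrays 1 to 4 alone all genes numbered 69 at 14 days and 903 at 21 days, 1 pathway gene rose at 14 days, and 1, 0 and 5 fell at 7, 14 and 21 days. With HFD arrays 5 to 8 alone all genes numbered 144, 58 and 349, 1, 1 and 3 rose, and 0 fell at each time. With controls 1 to 9 alone 2 fell at 14 days and 0 rose at 21 days. With controls 10 to 18 alone all genes numbered 61 at 14 days and 71 at 21 days, 0 rose at 14 and 21 days and 0 fell at each time. With Malat1 and the acinar mean as covariates all genes numbered 393 at 7 days, 4 pathway genes rose and 2 fell at 14 days, and 2 rose at 21 days. Leaving out the arrays with an acinar mean above 7 was chosen after seeing the data: all genes numbered 131 at 7 days and 65 at 14 days, 2, 0 and 0 rose, and 0 and 1 fell at 7 and 21 days.

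With each array left out in turn, all genes numbered 195 to 273, 81 to 126 and 107 to 131, pathway genes that rose 3 to 7, 0 to 3 and 0 to 2, and those that fell 0 to 2, 0 to 1 and 1 to 3. Differences near 0 between HFD times changed sign. Serpina7 at 21 against 14 days was -0.027 with median centring, -0.13 with array weights, -0.30 with HFD arrays 1 to 4 alone, -0.028 with the covariates and -0.11 without the arrays of high acinar mean, and -0.14 to 0.12 over left-out arrays. Thra at 14 against 7 days was 0.18 with HFD arrays 5 to 8 alone and 0.024 without the arrays of high acinar mean (-0.11 to 0.041 over left-out arrays), and at 21 against 14 days 0.026 with HFD arrays 1 to 4 alone. Thrb at 14 against 7 days was 0.011 with quantile normalization and 0.0026 with HFD arrays 5 to 8 alone (-0.036 to 0.032 over left-out arrays).

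The correlation of Ttr with Thrb was 0.17 after quantile normalization, which gave several arrays the same Ttr value. It was 0.41 without the 2 arrays farthest from the median of Ttr. That of Serpina7 with Thrb was -0.017 after quantile normalization. Same-numbered arrays correlated above 0.1 in 5 of 24 control-HFD pairs and 17 of 24 HFD-HFD pairs. Arrays of different numbers were not compared in this way, and the HFD arrays numbered 1 to 4 and 5 to 8 differed in Malat1. What the number itself adds was therefore not tested. With the replicate number as a block no call between HFD times on the 4 genes changed (Serpina7 adjusted p 0.9998 at 14 against 7 days, 0.663 at 21 against 7 days and 0.999 at 21 against 14 days). With that block all genes numbered 77 at 14 days, Ttr with Thrb had r = 0.34 (permutation p adjusted 0.188), Serpina7 with Thra -0.14 and Serpina7 with Thrb -0.20. Controls numbered above 8 add nothing to these values, since no HFD array shares their numbers.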
